A study of Mus musculus with 4 samples.

Results

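Islands of trimethylated lysine 9 of histone H3 (H3K9me3) that lie in genes for long noncoding RNAs (lncRNAs) and in no protein-coding gene were described in 2 libraries from mouse CD8+ T cells. A member is an autosomal island, that is, a stretch called as enriched, which shares at least 1 bp with the body of a RefSeq lncRNA gene and none with the body of a protein-coding gene. The rule was met by 3176 of 37777 autosomal islands, 1099 of 12368 in the wild-type (WT) list and 2077 of 25409 in the Suv39h1 knockout (KO) list. They touched 1746 of 12322 autosomal lncRNA genes. The study made chromatin immunoprecipitation and sequencing (ChIP-seq) libraries with an antibody to H3K9me3, and input libraries that are not analysed here. The CD8+ T cells came from WT littermate and Suv39h1-KO animals on the C57BL/6 background, and both genotypes were grown for 3 days under the same stimulation, anti-CD3 with anti-CD28 plus IL-2. Age, the number of animals and the kind of Suv39h1 allele are not given in the labels used here. There was 1 H3K9me3 library per genotype, so values are set side by side with no test, and each describes a library. Island lists hold no expression values, so neither the cell type nor the loss of Suv39h1 was checked against markers.

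H3K9me3 marks silent heterochromatin and is written by several methyltransferases, among them SUV39H1, SUV39H2 and SETDB1. Genes for lncRNAs are transcribed but encode no protein. Some, such as Airn, act on neighbouring genes, some host small RNAs, and most predicted models have no known role. Many lie in gene deserts or beside genes for developmental transcription factors, where silent chromatin is common.

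Reads in autosomal islands numbered 5546970 in WT and 9994598 in KO, and the KO list was larger as a whole, with 2.05 times as many islands. The depth of the whole libraries is not known here, so the part of depth in any difference of number was not tested. Island counts are those of called islands, and a gene without an island may still carry the mark below the calling threshold.

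Starts of lncRNA genes under lncRNA-only islands held a median of 2 CpGs, and those under no such island 4. To show the range of CpG content, 5 starts of named genes are printed, chosen after their values and cover were seen. CpG-rich examples were taken from uncovered starts and CpG-poor ones from covered starts, so they do not add to the medians. They are not strict extremes, since the uncovered start of 5730522E02Rik held 33 CpGs. Each is 300 bases of RefSeq promoter sequence (GRCm38.p6, the assembly that mm10 names), from 250 before to 50 after the most upstream annotated start, 5′ to 3′ on the gene's strand, with every CpG in capitals. Tug1 (chr11:3648765-3649064, minus strand) and Dleu2 (chr14:61682324-61682623, minus strand) carry islands in the gene body but not at the start. The starts of Gm34196 (chr13:84906142-84906441, minus strand), Gm39639 (chr1:47433274-47433573, plus strand) and D130009I18Rik (chr14:104638894-104639193, plus strand) lay under an island in both libraries.
Tug1: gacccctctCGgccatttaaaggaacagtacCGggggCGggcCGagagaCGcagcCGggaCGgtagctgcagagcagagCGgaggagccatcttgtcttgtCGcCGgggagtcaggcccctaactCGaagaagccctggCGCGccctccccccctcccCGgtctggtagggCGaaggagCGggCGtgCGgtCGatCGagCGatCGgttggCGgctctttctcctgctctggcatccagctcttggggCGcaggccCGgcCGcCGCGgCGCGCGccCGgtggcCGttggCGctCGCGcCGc
Dleu2: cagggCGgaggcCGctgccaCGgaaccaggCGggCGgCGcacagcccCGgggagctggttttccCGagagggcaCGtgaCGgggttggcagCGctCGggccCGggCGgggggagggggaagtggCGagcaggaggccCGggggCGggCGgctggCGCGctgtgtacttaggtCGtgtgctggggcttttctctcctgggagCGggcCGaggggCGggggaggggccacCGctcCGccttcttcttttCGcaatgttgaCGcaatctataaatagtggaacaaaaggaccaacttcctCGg
Gm34196: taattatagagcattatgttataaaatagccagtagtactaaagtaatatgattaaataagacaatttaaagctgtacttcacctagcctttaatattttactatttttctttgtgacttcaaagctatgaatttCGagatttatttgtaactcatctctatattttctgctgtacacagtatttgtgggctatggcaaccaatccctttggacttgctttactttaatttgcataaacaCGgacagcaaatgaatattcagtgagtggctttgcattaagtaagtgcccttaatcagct
Gm39639: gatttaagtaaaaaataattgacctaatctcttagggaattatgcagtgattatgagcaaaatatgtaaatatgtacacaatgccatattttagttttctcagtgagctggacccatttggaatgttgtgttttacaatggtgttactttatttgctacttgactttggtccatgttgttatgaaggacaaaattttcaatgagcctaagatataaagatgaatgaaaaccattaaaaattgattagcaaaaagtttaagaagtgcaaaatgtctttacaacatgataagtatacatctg
D130009I18Rik: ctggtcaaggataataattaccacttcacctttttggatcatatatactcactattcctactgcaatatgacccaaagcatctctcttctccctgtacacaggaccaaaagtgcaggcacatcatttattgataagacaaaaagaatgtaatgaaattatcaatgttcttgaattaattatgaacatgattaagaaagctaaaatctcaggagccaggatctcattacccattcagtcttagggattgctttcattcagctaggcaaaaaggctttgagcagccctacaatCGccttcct
The first pair held 37 and 29 CpGs, and the other three 2, 0 and 1. Their GC content was 71.3% for Tug1 and 69% for Dleu2, against 31.7% for Gm34196, 29.7% for Gm39639 and 37.7% for D130009I18Rik. Cover and CpG number did not go together in every named gene. The uncovered starts of Airn, Snhg14, Ipw, Rian and Celrr held 3, 2, 1, 0 and 0 CpGs, while that of Gm34297, under a WT island, held 12 and that of Gm40904, under islands of both libraries, 5.

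Islands in lncRNA genes were more numerous in KO than in WT, though by less than islands elsewhere between genes. The KO to WT ratio was 1.89 in number and 1.73 in covered length, from 12.1 Mb in WT to 20.9 Mb in KO. For islands outside lncRNA and protein-coding genes the ratios were 2.34 and 2.10, and for islands touching protein-coding genes 1.67 and 1.46. As a share of their list, lncRNA-only islands made up 8.89% in WT (exact 95% binomial interval 8.39 to 9.40) and 8.17% in KO (7.84 to 8.52). These intervals, and those below, cover the counting of islands only. The number was higher in KO on each of the 19 autosomes, by 1.17 times on chromosome 19 (23 and 27 islands) to 2.93 times on chromosome 8 (44 and 129). When the KO list was reduced to the WT number by its islands with most reads, KO had 1051 lncRNA-only islands, 48 fewer than WT. This setting removes KO islands only, those with fewest reads. Reads per kb varied little between islands, so those removed tend to be the shorter ones, while WT islands of all lengths stay.

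Single lncRNA-only islands had similar length and read density in the 2 lists. Their median length was 10.5 kb in WT and 9 kb in KO, with maxima of 61.5 and 63 kb. Their median density was 40.1 reads per kb in WT (quartiles 38.1 and 42.9) and 39.9 in KO (37.9 and 42.3), with no scaling for depth. Over all autosomal islands these medians were 40.4 and 40.1, and these lie within the quartiles of the lncRNA-only islands. At 65 lncRNA-only WT islands a KO island covered nearly the same place, with at least 80% of each under the other. There the median was 41.6 reads per kb in WT and 42 in KO, and KO was higher at 34 (52.3%). Over all autosomal islands 816 pairs met this limit. Their medians were 41.5 in WT and 41.1 in KO, and KO was higher at 358 (43.9%). All islands passed a calling threshold and depth is not known here, so like densities do not show like enrichment. Of the lncRNA-only islands, 596 in WT (54.2%) and 1308 in KO (63.0%) were wholly inside lncRNA bodies. There 60 in WT and 99 in KO had under 10% of their length. In WT 60 and in KO 117 islands touched more than 1 lncRNA gene, so genes that overlap share their islands.

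The libraries also differed in where the islands lay relative to protein-coding genes. The median gap to the nearest protein-coding gene body was 72.1 kb in WT (quartiles 21.1 and 224 kb) and 176 kb in KO (59.6 and 360 kb). Islands over 200 kb from any protein-coding gene made up 27.2% of lncRNA-only islands in WT (24.6 to 29.9) and 45.6% in KO (43.5 to 47.8). Those within 10 kb made up 15.3% in WT (13.2 to 17.6) and 6.16% in KO (5.17 to 7.28). The number within 10 kb was lower in KO, 128 against 168 in WT, whereas beyond 200 kb it was 948 against 299. Islands outside both gene classes showed the same order with longer gaps, with a WT median of 101 kb and a KO median of 211 kb.

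**Figure D1:**
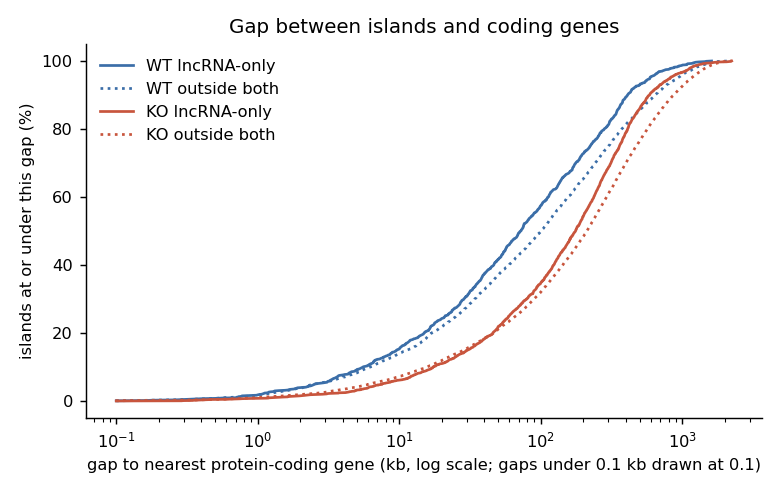
Cumulative share of islands (y axis, %) by gap to the nearest protein-coding gene (x axis, kb, log scale) for lncRNA-only islands (solid lines) and islands outside lncRNA and protein-coding genes (dotted lines) in WT (blue) and KO (red). The KO curves lie to the right, with a median gap of 176 kb against 72.1 kb in WT for lncRNA-only islands.

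Cover was also counted in bases. Here islands of every class were used, including those that touch protein-coding genes, and not the lncRNA-only islands alone. The lncRNA sequence outside protein-coding genes amounts to 171 Mb, of which 5.40% lay under islands in WT and 9.67% in KO. Within 10 kb of a protein-coding gene these values were 4.53% and 3.76%, so that KO cover was lower by 0.770 points. From 10 to 50 kb they were 4.97% and 4.89%, from 50 to 200 kb 5.40% and 9.67%, and beyond 200 kb 6.36% and 18.3%, a KO to WT ratio of 2.88. In WT the cover varied little with distance, and in KO it was several times higher in the most remote class than in the nearest. With the KO list reduced to the WT number, KO minus WT was -2.29, -2.19, 0.795 and 5.94 points in the order of distance. KO cover was then lower than WT cover up to 50 kb and higher beyond it. The reduced list tends to keep the longer KO islands beside WT islands of all lengths, so these base shares are not like for like.

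lncRNA bodies were under islands less often than other sequence between genes. Sequence outside both gene classes had 6.67% under islands in WT and 13.3% in KO. By distance it had 6.00% and 6.79% within 10 kb, 6.78% and 7.83% from 10 to 50 kb, 7.20% and 13.6% from 50 to 200 kb, and 6.54% and 20.2% beyond 200 kb. The lncRNA value was below it in both libraries in all 4 classes. Set against sequence within 20 kb of a lncRNA gene, again outside both gene classes, lncRNA bodies were above it in KO in all 4 classes and in WT in 3 of them. That neighbouring sequence had 3.71% in WT and 2.40% in KO within 10 kb of a protein-coding gene, and 5.15% and 16.6% beyond 200 kb. The exception was WT from 10 to 50 kb, where lncRNA bodies had 4.97% and their neighbourhood 5.06%. Sequence outside genes may include assembly gaps, which were not removed.

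**Figure D2:**
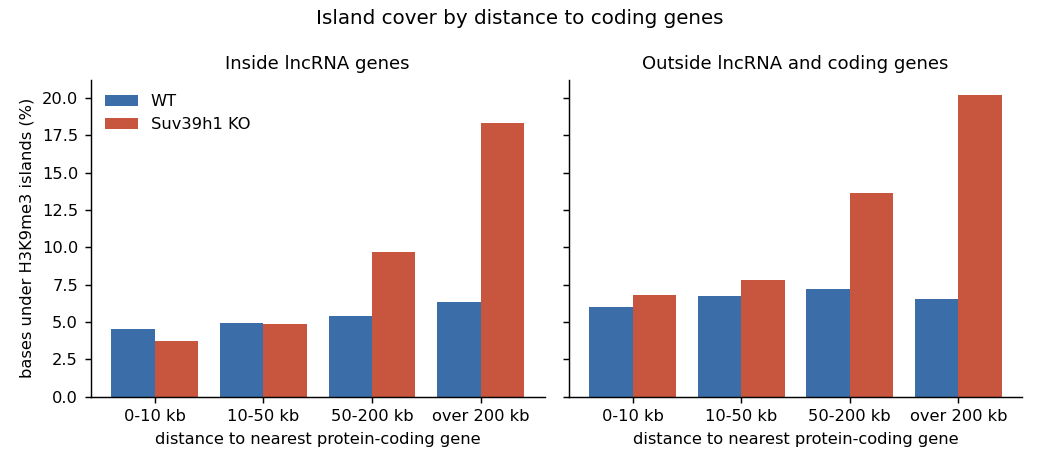
Percent of bases under H3K9me3 islands (y axis) by distance to the nearest protein-coding gene (x axis, 4 classes), inside lncRNA genes (left) and outside lncRNA and protein-coding genes (right), in WT (blue) and KO (red). Islands of every class are counted. Inside lncRNA genes the KO bar is at or below the WT bar up to 50 kb and reaches 18.3% against 6.36% beyond 200 kb.

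Many places were called in 1 library only. Of the lncRNA-only islands, 606 in WT (55.1%) and 1555 in KO (74.9%) had no base under an island of the other list. Over all autosomal islands these shares were 52% in WT and 75.1% in KO, so members stood close to the background. With equal numbers of islands, 27.4% of WT and 28.9% of KO members were overlapped, against 44.9% and 25.1% in the full lists, which turned the order. The share overlapped varied with distance in opposite senses. In WT it was 25% within 10 kb of a protein-coding gene (42 of 168, interval 18.7 to 32.3) and 59.2% beyond 200 kb (177 of 299, 53.4 to 64.8). In KO it was 35.9% within 10 kb (46 of 128, 27.7 to 44.9) and 20.1% beyond 200 kb (191 of 948, 17.6 to 22.8). In WT the value within 10 kb lay below that of islands outside both gene classes, 41.7% (38.6 to 44.9), while beyond 200 kb the latter had 61%.

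By gene, 448 lncRNAs had a lncRNA-only island in WT alone (3.64% of all 12322), 833 in KO alone (6.76%) and 465 in both (3.77%). The order of the first pair turned with equal numbers of islands, to 617 in WT alone and 489 in KO alone. Counting islands of every class, the shares of autosomal lncRNA genes were 4.8% for WT alone, 8.1% for KO alone and 4.61% for both. For 20558 protein-coding genes the same shares were 5.98%, 5.86% and 7.18%. Of the 448 genes in WT alone, 8 had a KO island of another class, and of the 833 in KO alone 16 had such a WT island. Islands of both libraries met in 373 of the 465 shared genes and lay apart in 92. KO cover was the longer in 234 of them, WT cover in 208, and 23 were equal, with a WT median of 10 kb and a KO median of 10.5 kb. Where the gene lay over 200 kb from a protein-coding gene, KO cover was longer in 88 and WT cover in 46 of 139. From 10 to 50 kb it was the other way, 36 and 53 of 94. In the most remote class KO alone held 312 genes and WT alone 52, and from 10 to 50 kb they held 116 and 127.

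Genes with islands were longer than other lncRNA genes. Their median length was 25.8 kb, against 8.43 kb over all autosomal lncRNA genes, and 48.5 kb for those covered in both libraries. Of lncRNA genes under 5 kb, 2.01% had a lncRNA-only island in WT and 2.94% in KO. At 100 kb or more these shares were 45.0% and 62.1%, and KO was higher in all 5 length classes. Any overlap makes a gene a member, so longer genes are touched more often by construction, and in both libraries more so. These lengths and shares thus cannot show whether islands favour long genes. The share of whole-body bases under lncRNA-only islands is not raised by gene length in this way. It was 1.63% in WT and 2.52% in KO under 5 kb, and 5.47% and 13.0% at 100 kb or more. The length classes were not matched for distance from coding genes. This share of bases also carries the rule. For lncRNA genes that overlap a protein-coding gene it was 1.78% in WT and 2.47% in KO. For those over 200 kb from one it was 6.22% and 18.8%. The rule itself bars islands that touch protein-coding genes, and 4465 of the 12322 lncRNA genes overlap such a gene, so the distance of member genes from coding genes in part follows from the rule. The median gap of the gene body to a protein-coding gene was 24.3 kb for genes in WT alone, 70.3 kb for those in both and 123 kb for those in KO alone, against 5.44 kb over all lncRNA genes. A whole gene body lay under islands for 68 lncRNAs in WT and 87 in KO, and 11 of these in both. Of the 1746 genes, 1388 have Gm symbols and 297 Rik symbols, and of all 12322 lncRNA genes 9866 and 1746. Of 3220 genes with a known noncoding transcript in RefSeq, 272 carried WT islands (8.45%) and 384 KO islands (11.9%). Of 9102 with predicted transcripts only, the numbers were 641 and 914. Opposite-strand or antisense genes, recognised by symbol, had islands in 14 of 214 (6.54%; 8 in WT, 9 in KO), against 14.2% of all lncRNA genes (913 and 1298). The share depends on distance through the rule. It was 4.48% for all lncRNA genes that overlap a protein-coding gene and 9.45% for those within 10 kb of one. Antisense genes were not set against others at the same distance.

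Arrays of islands over single lncRNA genes gave the longest cover, and in 5 of the 6 longest shared ones KO cover was the longer. These 6 were picked by their cover in the same lists, and the KO list is the larger. Over all 465 shared genes KO cover was the longer in 234 and WT cover in 208. In WT 157 genes carried more than 1 island and 12 carried 5 or more, and in KO 403 and 60. The most islands in either list lay over Gm34196 (chr13:84573766-84906191), with 8 in WT over 69.2 kb and 19 in KO over 166 kb, and 44.7 kb of the gene under both. D130009I18Rik (chr14:104639144-104966783) carried 5 WT islands over 67.4 kb and 16 KO islands over 150 kb. Gm27243 (chr4:23975110-24430909) carried 3 over 32.5 kb and 15 over 156.5 kb. Gm40677 (chr10:66293284-66512512) carried 4 over 40 kb and 12 over 126 kb. Gm32647, the longest gene of this group at 1284 kb (chr7:94042496-95326426), carried 4 over 40.5 kb and 13 over 125 kb. With the KO list reduced to the WT number KO minus WT was 49.7 kb in Gm34196, 44.3 kb in D130009I18Rik and 71 kb in Gm27243. It was 57.0 kb in Gm40677 and 48.5 kb in Gm32647. That cut tends to keep the longer KO islands and leaves all WT islands, and these genes were picked by cover, so the direction is not tested by it. In 5730522E02Rik (chr11:25616846-26210576) WT cover was the longer, 94.5 kb in 7 islands against 76 kb in 9, but when each list was limited to its denser part, above its median density, KO was longer by 33.5 kb, and with the KO list reduced to the WT number KO minus WT was -61 kb.

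**Figure D3:**
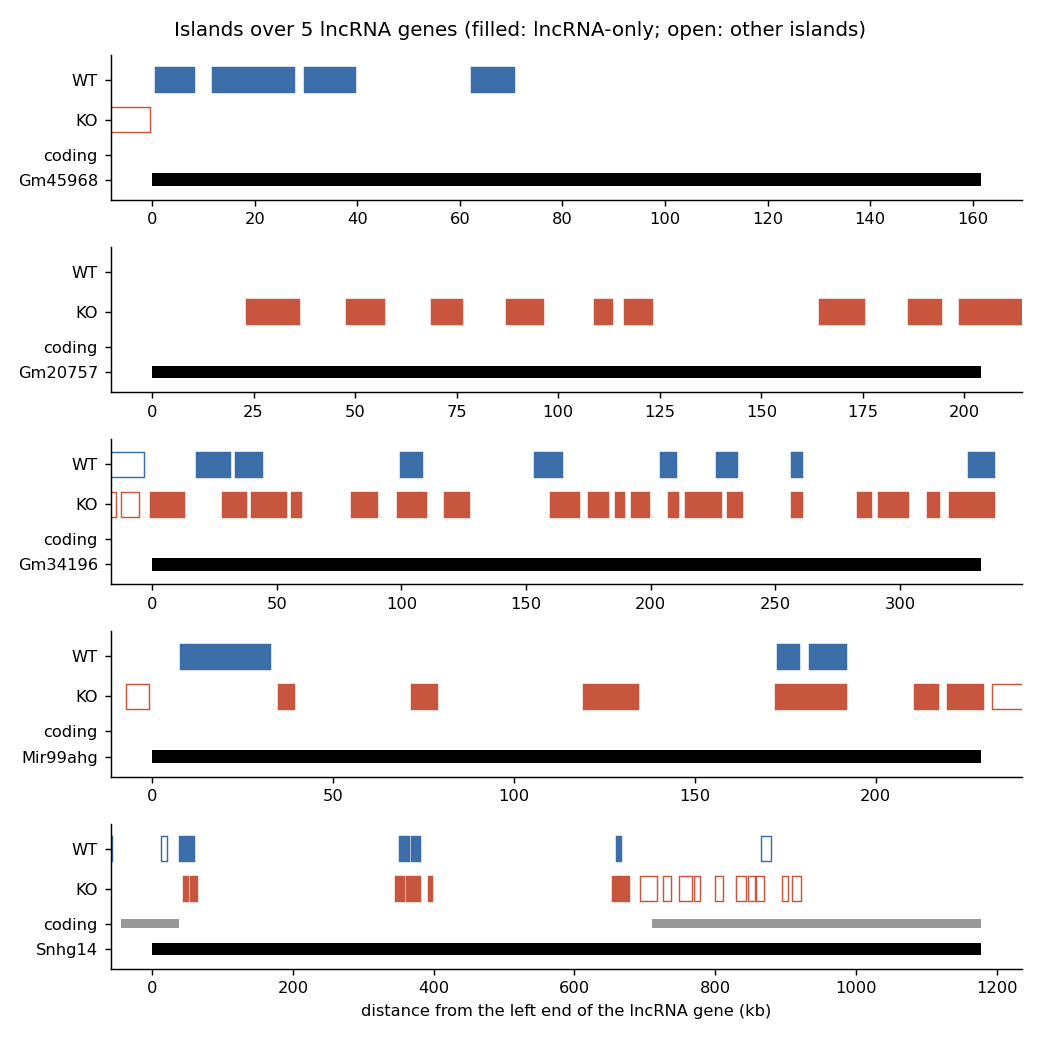
Islands of WT (blue, upper row) and KO (red, lower row) over 5 lncRNA genes (black bars), with protein-coding genes in grey and the x axis in kb from the end of the gene with the lower coordinate. Filled boxes are lncRNA-only islands and open boxes other islands. Gm45968 has 4 in WT and none in KO, Gm20757 none and 9, Gm34196 8 and 19, Mir99ahg 3 and 6, and Snhg14 4 and 7.

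Among genes covered in KO alone, Gm29260 (chr1:41743022-41939598) had the longest cover, 77 kb in 6 islands, and lies 756 kb from Pou3f3, a neural transcription factor gene. Gm20757 (chr10:92171301-92375373) followed with 74.9 kb in 9 islands. A230006K03Rik (chr7:61010265-61311649) had 65.7 kb in 7, A330033J07Rik (chr13:48044231-48262623, at Id4) 63.5 kb in 6 and 4930445N06Rik (chr15:88222674-88317175) 58 kb in 3. None of these 5 had a WT island of any class. In the reduced KO list Gm20757 kept 37.4 kb. Among genes with descriptive symbols covered in KO alone, the longest covers were 14.5 kb in Sox2ot and 11 kb each in Celrr and Pax6os1, and none of these islands was denser than the median of the list. Among islands denser than the median of their list the KO cover was 38 kb in A330033J07Rik, 28.9 kb in Gm20757, 17 kb in Gm29260, 6.5 kb in A230006K03Rik and 6 kb in 4930445N06Rik. The longest covers in WT alone were shorter over all islands, but not among the denser ones, where Gm45968 kept 42 kb. Gm45968 (chr16:55420838-55582457) had 42 kb in 4 WT islands, Gm30305 (chr11:64662793-64719258) 24 kb in 2 and Gm36335 (chr10:54343992-54365223) 21.0 kb in 1. Gm13990 had 19 kb, 4930559C10Rik 17.5 kb, and Gm10125, beside the transcription factor gene Zeb1, also 17.5 kb. Wincr1 (chr4:89050307-89084610), a Wnt-induced lncRNA, had 17 kb in 2 WT islands. Among the denser islands KO minus WT was -10.5 kb in Gm30305, -6.5 kb in Wincr1 and 0 kb in Gm36335 and Gm13990. Gad1os, opposite the gene of the GABA-synthesising enzyme, had 12.1 kb under lncRNA-only islands in WT and none in KO. Counting islands of every class, its cover was 22.6 kb in WT and 7.50 kb in KO.

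Neighbouring protein-coding genes were shared in part. lncRNA-only islands had 789 different protein-coding genes as nearest neighbour in WT and 914 in KO, of which 433 were in both (1270 in either). The neighbour with most in KO was Mms22l, a replication repair gene, with 4 islands in WT and 20 in KO. Reep3 followed with 5 and 17, Mat2b with 3 and 15, and Nedd1 with 1 and 15. In WT it was Zic4, a cerebellar transcription factor gene, with 8, against 12 in KO. The next in WT were 7 genes with 7 islands each. Of these Alcam, an adhesion gene that binds CD6 on T cells, had 5 in KO and Tslp, an epithelial cytokine gene, 4. Acvr2a and Dipk2a had 7 in KO, Tnc 9, and Fancl and Tmem161b 10. Olfactory receptor genes were rarely the neighbour, for 7 islands (0.637%) in WT and 7 (0.337%) in KO, against 2.65% and 2.36% of islands outside both gene classes. Zinc finger genes with Zfp symbols were the neighbour of 28 (2.55%) in WT and 23 (1.11%) in KO, against 1.35% and 0.919%. The other families counted went the other way. Protocadherin genes were the neighbour of 5 (0.455%) in WT and 26 (1.25%) in KO, against 1.13% and 1.85%. For cadherin genes it was 2 (0.182%) and 15 (0.722%), against 1.08% and 2.15%. Vomeronasal receptor genes had 0 and 7, and defensin genes 0 and 1.

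Known lncRNAs of T cells and immune cells had islands at a share near that of all lncRNA genes. Of 29 symbols listed, 22 matched an autosomal lncRNA gene, and 2 of the 22 had a lncRNA-only island (9.09%, against 14.2% of all lncRNA genes, with a median length of 7.38 kb against 8.43 kb). Tug1 (chr11:3639785-3648814), a widely expressed lncRNA, was covered alike in both libraries. A WT island of 15.5 kb with 759 reads (chr11:3632501-3648000) and a KO island of 10.5 kb with 559 reads (chr11:3637501-3648000) ended at the same base, 813 bp short of the start shown above, and each covered 8.22 of the 9.03 kb gene. Dleu2 (chr14:61602836-61682373), the host of miR-15a and miR-16-1, carried 1 WT island of 6.50 kb with 325 reads at chr14:61640001-61646500 and no KO island. The other 20, among them the nuclear RNAs Malat1 and Neat1, the growth arrest RNA Gas5, Mir155hg and Mir17hg, which host miRNAs of activated lymphocytes, and Pvt1 beside Myc, had no island of any class in either library. These include long genes, Pvt1 at 222 kb, Morrbid at 131 kb, Lncpint at 125 kb and Ifngas1 at 54.5 kb.

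Imprinted lncRNAs, which are transcribed from 1 parental allele, had islands in 5 of 13 matched genes (38.5%; median length 30.7 kb). The share was 14.2% over all lncRNA genes and 26.1% over those of 20 to 50 kb. Most of the 5 are longer than 50 kb. Over all lncRNA genes of 50 to 100 kb the share was 51.4%, and over those of 100 kb or more 68.8%. Snhg14 (chr7:59272737-60450177), the long snoRNA host that runs antisense to Ube3a, carried 4 lncRNA-only islands over 55.5 kb in WT and 7 over 76.5 kb in KO, with 41.5 kb under both. Counting islands that also touch protein-coding genes, the cover of Snhg14 was 79.5 kb in WT and 207.5 kb in KO. With the KO list reduced to the WT number, its lncRNA-only cover differed by 0 kb. Ipw (chr7:59619158-59678878), which lies inside it, had 27 kb under WT islands, 34.3 kb under KO islands and 21.5 kb under both. Every island of Ipw is also an island of Snhg14, so the count of 5 genes includes the same islands under both names. In that reduced list KO minus WT for Ipw was -6.16 kb. A330076H08Rik had 9.86 kb in 2 KO islands and none in WT, and neither island was in the reduced list. Airn (chr17:12741311-12859884), the silencer of Igf2r, carried a WT island over 6 kb and a KO island over 11.5 kb, of which 5.5 kb was shared. With protein-coding genes widened by 10 kb its KO island was no longer a member and the WT island was. Rian (chr12:109603945-109661716), a snoRNA host of the Dlk1 to Dio3 domain, had 8.50 kb in WT alone, under an island no denser than the median. H19, Meg3, Mirg, Peg13, Nctc1 and Igf2os had no island of any class. Kcnq1ot1 had no lncRNA-only island, but islands that also touch a protein-coding gene covered 40.4 kb of it in WT and 39.4 kb in KO. Zim3 was covered over 12 kb by such islands in KO only.

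Developmental and neuronal lncRNAs had islands in 9 of 24 matched genes (37.5%; median length 29.2 kb), against the same 14.2% over all lncRNA genes and 26.1% over those of 20 to 50 kb. Most of the 9 are longer than 50 kb. Over all lncRNA genes of 50 to 100 kb the share was 51.4%, and over those of 100 kb or more 68.8%. The part of gene length in the share of this list was not tested. The libraries split here by gene. Mir99ahg (chr16:77329328-77558428), the host of the let-7c, miR-99a and miR-125b-2 cluster, carried 3 WT islands (41 kb) and 6 KO islands (61.9 kb), with 16 kb under both. With the KO list reduced to the WT number the difference in Mir99ahg was 2.93 kb. Rmst (chr10:92081746-92165178), a lncRNA of neural progenitors, had nearly equal cover, 20.5 kb under a WT island and 21 kb under KO islands, with 12.5 kb shared. Gm20757, whose cover was in KO alone, ends next to it. Among islands denser than the median of their list Rmst had KO cover only, 21 kb. Mir100hg (chr9:41376526-41615185) carried a WT island over 8 kb and KO islands over 16 kb, a difference of 1.5 kb in the reduced list. Pantr1 (chr1:42648200-42694825), beside Pou3f3, had 23 kb in 1 WT island of 842 reads and 4.50 kb in 1 KO island of 204 reads that lay inside it. Only the KO island was denser than the median of its list, which turned the direction for Pantr1 to 4.50 kb longer in KO. In the reduced list Pantr1 had WT cover only, a difference of -23 kb. Its neighbour Pantr2 had 0.940 kb in KO alone, which was not in the reduced list either. Sox2ot (chr3:34560381-34677993), which contains the stem cell gene Sox2, had 14.5 kb in 2 KO islands and none in WT, and neither was in the reduced list. Pax6os1 (chr2:105536080-105670330), opposite the eye transcription factor gene Pax6, had 11 kb in 1 KO island. Otx2os1 (chr14:48669288-48793348) had 17.5 kb in 2 WT islands and none in KO, and Dlx6os1 2.96 kb in 1 WT island. Of these only 6.5 kb in Otx2os1 lay under an island denser than the median. The Hox cluster lncRNAs Hotair, Hottip, Hotairm1 and Hoxa11os had no island of any class.

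**Figure D4:**
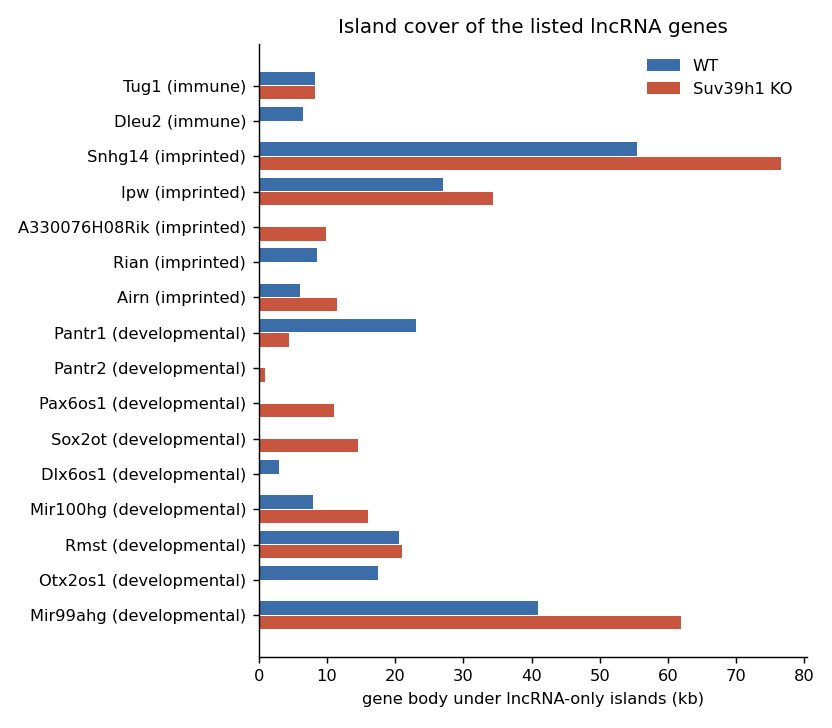
Length of the gene body under lncRNA-only islands (x axis, kb) in WT (blue) and KO (red) for the 16 genes of the 3 symbol lists that had such an island. Snhg14 reaches 55.5 kb in WT and 76.5 kb in KO, Tug1 has 8.22 kb in both, and Otx2os1 and Pax6os1 each have cover in 1 library.

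Some small RNA genes lay under these islands. Of 1136 autosomal miRNA genes 2 were touched in WT alone, 3 in KO alone and 2 in both, and of 1276 snoRNA genes 7, 8 and 3. Mirlet7a-2, inside Mir100hg, lay under islands of both libraries, Mir217, a pancreatic miRNA, under a KO island in Gm40818, and Mir195b under a WT island in Gm33458. A mature sequence of each, from RefSeq, is given with the seed, bases 2 to 8, in capitals. The seed sets which targets a miRNA pairs with, and the seeds shown differ. For Mirlet7a-2 only the 3p arm of the hairpin is printed and for Mir217 only the 5p arm. The other arms have seeds of their own, which are not shown.
mmu-let-7a-2-3p: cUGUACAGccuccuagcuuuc
mmu-miR-217-5p: uACUGCAUcaggaacugacugga
mmu-miR-195b: uAGCAGCAcagaaauaguagaa

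Starts of lncRNA genes were under islands somewhat less often than their flanks. For 9291 of the 12322 autosomal lncRNA genes a start was matched in the RefSeq promoter table, and starts on chromosome 18 were not analysed here. Among 5981 whose bodies lie apart from protein-coding genes, 3.53% had an island over the start in WT and 5.42% in KO, the lowest value within 50 kb in both libraries. The mean from 20 to 50 kb on either side was 4.27% in WT and 6.42% in KO, giving ratios of 0.826 and 0.844. At 16457 protein-coding starts the values were 3.48% in WT and 3.91% in KO, with ratios of 0.763 and 0.813. KO lay above WT at lncRNA starts at each position drawn, while at protein-coding starts the curves crossed.

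**Figure D5:**
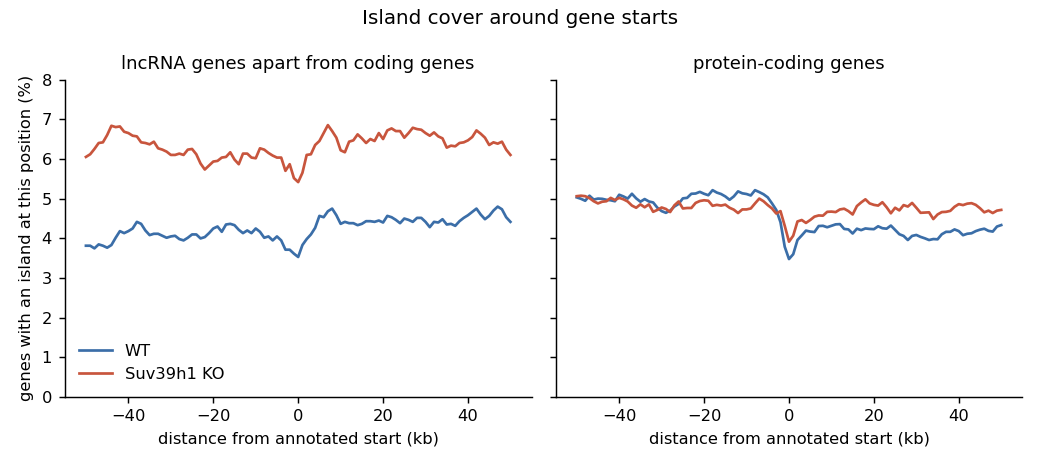
Percent of genes with an island (y axis) at each position from 50 kb upstream (negative) to 50 kb downstream of the annotated start (x axis, kb, steps of 1 kb), for 5981 lncRNA genes apart from protein-coding genes (left) and 16457 protein-coding genes (right), in WT (blue) and KO (red). Both libraries have their lowest value at the start, 3.53% in WT and 5.42% in KO for lncRNA genes.

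lncRNA starts under islands were poor in CpG. Of 6409 starts outside protein-coding genes, those under a lncRNA-only island in WT alone (149) had a median of 2 CpGs in 300 bases (quartiles 1 and 4). Those in KO alone (272) and in both (44) also had a median of 2. The 5944 under no lncRNA-only island, here called uncovered, had 4 (quartiles 2 and 7). Islands of every class lay over 220 of the 6409 starts in WT and 335 in KO, against 193 and 316 for lncRNA-only islands. Some uncovered starts thus lay under an island of another class. At least 10 CpGs were present in 8.05%, 5.15% and 4.55% of these groups and in 16.0% of uncovered starts. Median GC content was 44%, 42.3% and 40.3%, against 48% at uncovered starts. Uncovered starts were also poorer in CpG far from protein-coding genes, with a median of 6 within 10 kb and 3 beyond 200 kb. Within 10 kb, starts under WT islands had 3 and those under KO islands 2, and beyond 200 kb both had 2. From 50 to 200 kb starts under WT islands had 3, the same as uncovered ones. The motif TGCCGC, which the imprinting factor ZFP57 recognises and which holds a CpG, was searched on both strands (GCGGCA on the other). It was in 5.85% of these 6409 starts, in 6 of the 149 under WT islands alone, 3 of the 272 under KO islands alone, 1 of the 44 under both and 365 of the 5944 (6.14%) under neither. Of the member genes with a start in the table, the start itself lay under the island in 110 of the 350 WT-alone genes and 226 of the 639 KO-alone genes. In genes covered in both it did so in 83 in WT and 90 in KO of 361, and in 44 of these in both libraries.

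The densest islands included one at ribosomal sequence. In KO an island at chr17:39832001-39849000 held 7260 reads, or 427 per kb, and no WT island overlapped it. It shared 889 bp with the lncRNA gene AY036118 and contained Rn18s-rs5, annotated as a pseudogene of 18S ribosomal RNA. The input libraries were not used at this island. The next in KO lay in 2700054A10Rik (chr17:13540001-13551000), with 1359 reads or 124 per kb and no WT island. In WT the densest of at least 5 kb lay in Gm33838 (chr9:35303001-35309500), with 561 reads or 86.3 per kb, and a KO island covered 3 kb of it. Another dense WT member reached 779 bp into Gm46898, near Zfp978 (chr4:147398001-147412500), with 920 reads or 63.4 per kb, and KO islands covered 14 of its 14.5 kb. The longest WT member, chr13:12881001-12942500 over Gm40904, held 64.1 reads per kb, and the KO member there (chr13:12893001-12942000) 73.1. The longest KO member (chr1:47398001-47461000, 63 kb) reached over Gm39639, with 27 kb under WT islands.

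The extremes of distance were named by rule. The WT member farthest from a protein-coding gene lay in 4930474G06Rik (chr18:28642501-28654500), 1611 kb from Pik3c3, and the next ones in Gm32647. In KO it lay at Gm33805 (chr18:28022501-28031000), 2235 kb from Pik3c3, and another in Gm33246, 2198 kb from Pcdh20. The nearest in WT lay 71 bp from Pmch, which encodes melanin-concentrating hormone, over Gm30233, and 163 bp from Ube3a in Snhg14. In KO they lay 13 bp from Tpd52l1 over Gm51764, 290 bp from Pou3f3 over Pantr2, Gm46091 and 2900092D14Rik, and 297 bp from Cntnap4 over Gm26994. None of the 3 farthest islands of either list was overlapped by the other. With the KO list reduced to the WT number the KO islands at Gm33805 and Gm33246 and the one 290 bp from Pou3f3 were absent.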

How the data were processed

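H3K9me3 ChIP-seq islands from 1 WT and 1 KO library were analysed, with groups read from the sample titles. Alignment and calling tools were Bowtie2 and SICER 1.1 on mm10, per the submitters' processing notes. For the window, the gap, the error threshold and the input the sources used here state nothing. The deposited whole-number counts per island, not scaled per their values, were read as ChIP reads. Coordinates on a 500 bp grid, counted from 0, were converted to count from 1.

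Genes came from a RefSeq table of GRCm38.p6, without 349 genes on other scaffolds, and starts and sequences from RefSeq tables. Gaps run to the nearest protein-coding gene body. Intervals are exact (Clopper-Pearson) at 95%. Interval code in Python 3.11.15 with pandas 2.3.3 was tested on simulated data.

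Members, lists and alternatives were chosen with earlier results of these data known. Genes are named by rule: listed lncRNAs with islands, the 6 longest covers in WT alone, KO alone and both (3 with descriptive symbols), and those under the 3 longest, densest, farthest and nearest islands. The sequence within 20 kb of lncRNA genes, cover around starts, start sequences, same-place islands, neighbours and small RNAs were added after the data were seen. One gene that the rule names is not reported here.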

Additional observations from a re-analysis of the deposited data

How the results depend on the processing

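No paired analysis was possible because only 1 WT and 1 KO library exist here. Across 9 other settings, 27 main values gave 225 comparisons, of which 178 stayed within their exact interval or within 1.5 times. The number of lncRNA-only islands was higher in KO in 8 of the 9 settings, but KO minus WT was -48 with equal numbers of islands. Dropping islands lowers counts by construction. The minimum of 50% of an island in lncRNA genes does not enter the base shares, and widening by 10 kb leaves no bases within 10 kb.

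Keeping the denser part of each list, above its median density, left 513 members in WT and 997 in KO, a difference of 484, over 4.55 and 8.34 Mb. Of these 30.4% and 15.7% were overlapped, and the WT median gap was 46.8 kb. Genes numbered 282 in WT alone, 536 in KO alone and 177 in both. Cover of lncRNA sequence was 2.10% in WT and 3.92% in KO, a difference of 1.82 points. By distance it was 2.26% and 1.75% (-0.513 points), 2.48% and 2.24% (-0.238), 2.10% and 4.02% (1.92), and 1.59% and 6.87% (5.28).

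With equal numbers of islands KO had 1051 members, 27.4% of WT and 28.9% of KO members were overlapped, and the KO median gap was 192 kb. Genes numbered 617 in WT alone, 489 in KO alone and 296 in both, so WT alone exceeded KO alone. KO cover was 6.21% (0.816 points above WT), from KO islands chosen by reads, which tends to keep the longer ones. By distance KO had 2.24% (-2.29 points), 2.77% (-2.19) and 6.19% (0.795), and beyond 200 kb the difference was 5.94 points.

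Widening protein-coding genes by 10 kb gave 48.4% of WT members overlapped and median gaps of 101 kb for WT and of 192 kb for KO. From 10 to 50 kb, KO minus WT was -0.0292 points without islands on pseudogenes, and 2.93e-05 points, the opposite sign, after merging across 5 kb.

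Of 486 comparisons for 54 named lncRNAs, 9 changed direction, in KO minus WT cover. These were 5730522E02Rik (33.5 kb), Gm34297 (0.532 kb) and Pantr1 (4.50 kb) above the median density, Ipw (-6.16 kb) with equal numbers, and Gm34291 (-16 kb) and Gm39639 (-15.5 kb) with 50% of the island in lncRNA genes. Gm40836 (6.50 kb with 2 kb and with 10 kb) and Airn (-6 kb with 10 kb) did so when protein-coding genes were widened. The depth of the whole libraries, which limits what was called, is not known here.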
